A study of Drosophila melanogaster with 8 samples.

Results

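Cold and stress response genes were examined in the heads of Drosophila melanogaster females kept in the cold under long or short days. The genes were 10 of the 11982 with a probe set of their own on Affymetrix Drosophila Genome 2.0 arrays. They were chosen by name, as Fst (Frost), smp-30 and regucalcin, the Turandot genes TotB, TotC, TotZ and TotF, and the stress signalling genes Gadd45, puc and p38c. Where several of the 13 probe sets annotated to these genes alone belonged to 1 gene, the brightest on average stood for it.

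All flies were Canton_S females, a common laboratory wild type. They were moved within 8 h of emergence to 12.5 °C and kept there for 12 days, with 16 h of light and 8 h of dark in long days or 10 h of light and 14 h of dark in short days, and were collected at 4 h into the light phase. The methods differ from the deposited descriptions on the length of the short day, the time from emergence to transfer, the hour of collection and, in one place, the temperature, and the deposited descriptions are followed here. Each photoperiod had 4 samples, each on 1 array. No warm group was part of the comparison, so both groups carried the cold treatment and what differed between them was day length. Separate vials are not mentioned for the samples, so the tests rest on a spread that may be technical.

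In Drosophila, Fst encodes a secreted protein whose transcript accumulates during recovery from cold, and smp-30 is also known as a cold acclimation gene. smp-30 and regucalcin are relatives of a mammalian calcium-binding protein whose level falls with age. The Turandot genes encode small secreted proteins that are released into the haemolymph after infection, heat and other stress, largely by the fat body and partly under control of the JAK-STAT pathway. puc encodes the phosphatase that switches off the Jun kinase (JNK) and is itself induced by it, p38c encodes a kinase of the p38 family, and Gadd45 encodes a small protein named for its mammalian relatives, which respond to DNA damage.

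Values are log2 expression throughout unless a fold is named, and a gene is said to have risen or fallen where limma gave an unadjusted p under 0.01. Array medians lay between 8.44 and 8.52 (log2) for the 9107 probe sets of mean 4 or more. The heads carried the markers of their tissue: Arr1 and Arr2, the arrestins of photoreceptors, had means of 15.00 and 15.04 and the neuronal gene elav 11.42, while none of 7 ovary and germline markers had a mean of 4 or more. The 18S rRNA control was lower in long day replicate 2 (9.09) and short day replicate 3 (9.07) than on the other arrays, which lay between 10.39 and 11.35. Short day replicate 3 also carried transcripts of flight muscle, with a mean of the flight muscle markers 2.09 above the average of the arrays, against at most 0.14 on the others. Of 14 fat body markers 7 fell in short days, and of 10 sarcomere markers 7 rose, where 1.69% of all genes fell and 1.79% rose. The sarcomere count was 4 without long day replicate 2 or 4 or short day replicate 1 or 2, and 2 without both arrays low in 18S rRNA, where 5 fat body markers fell. In whole heads, fewer cells of a type and less RNA per cell cannot be told apart.

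None of the 10 cold and stress genes rose or fell with day length, and in none did the short day values lie wholly to one side of the long day values. By the same test 3.48% of all genes were called (417 of 11982), and 7.34% of all genes had groups that did not overlap. At an unadjusted p under 0.05 none of the 10 was called either, against 11.1% of all genes. After adjustment over all 18769 probe sets 1 (0.00533%) passed 0.05, and it belonged to none of the 10. Only 5 of the genes had a mean of 4 or more, a level at which 5.65% of genes were called, and 4 had a mean of 6 or more, namely regucalcin, TotC, smp-30 and puc. The median difference of those 4 was 0.14 on the log2 scale, beside 0.02 for all genes of that level. Fits without moderation of the variance, with array weights, with a replicate block and after leaving out any 1 array also called none of the 10. Without the 2 arrays low in 18S rRNA none was called, and the differences were 0.38 for regucalcin, 0.24 for TotC, 0.20 for smp-30 and -0.14 for puc.

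**Figure D1:**
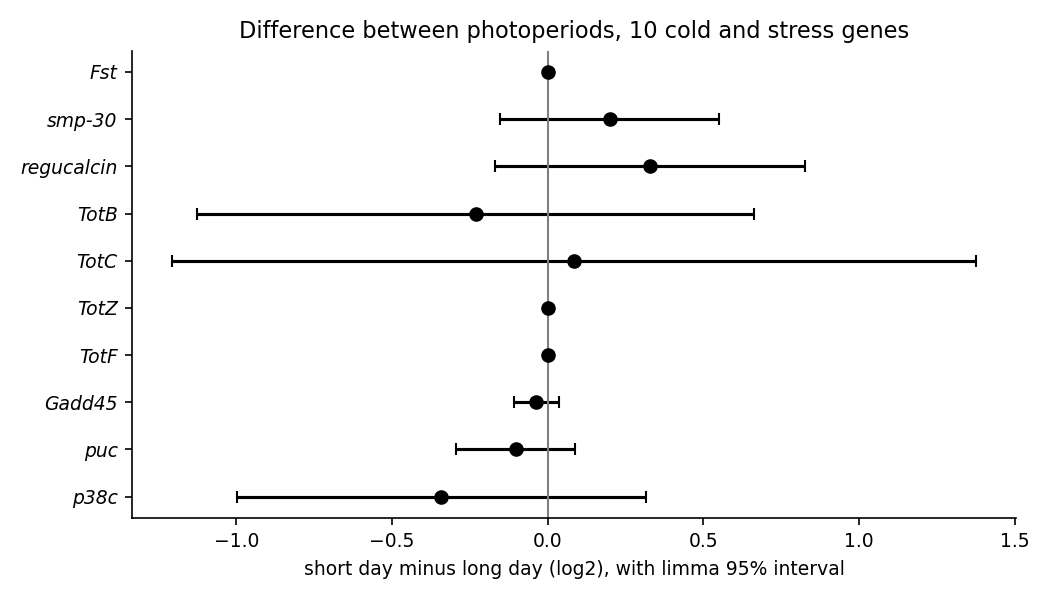
Short day minus long day difference (log2, horizontal axis) of the representative probe set of each of the 10 genes, with limma 95% intervals from 4 arrays per group. All intervals span 0, and those of TotC and TotB are the widest while those of Fst, TotZ and TotF have almost no width, as these probe sets stayed at the lowest value of the table.

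The genes differed widely in whether they could be measured at all. Fst was between 2.15 and 2.16 on all 8 arrays, within 0.01 of 2.15, the lowest value in the table. TotZ and TotF were within 0.01 of that value on all 8 arrays too, and so was TotE, a further Turandot gene. Flies that had spent 12 days at 12.5 °C therefore gave no signal above the lower end on these probe sets in either photoperiod. A value at this lower end does not show that a transcript was absent. Their adjusted p-values were 0.830 for Fst and 1 for TotZ and TotF. TotA, TotM and TotX have no probe set listed under their names and were not analysed here.

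TotC was the only one of these Turandot genes well above the lower end on all arrays, and it varied far more between arrays of one photoperiod than between the photoperiods. In long days it was at 9.63, 10.61, 9.83 and 11.24 in replicates 1 to 4, and in short days at 10.27, 9.61, 10.23 and 11.54. The highest array of each photoperiod was the one numbered 4, the lowest values of the groups were alike, and the groups overlapped over nearly their whole range. The means were 10.33 ± 0.74 and 10.41 ± 0.81 (SD, n = 4 each). The difference was 0.08 on the log2 scale, or 1.06-fold, with a 95% interval from 0.434-fold to 2.59-fold (limma adjusted p = 1). With this spread, an effect of day length of up to that size in either direction is thus not excluded. Fat body markers, of the tissue known to secrete Turandot proteins, had a mean level between 0.21 and 0.32 in long days and between -0.49 and -0.13 in short days relative to the average of the arrays. Across the 8 arrays TotC and that level gave r = 0.171 (exact permutation p = 0.682, adjusted p = 0.835) and rho = 0.333 (exact permutation p = 0.428, adjusted p = 0.740). These values include the shift of the fat body level between photoperiods. Over the deviations of the samples from the means of their photoperiods r was 0.590, which was not tested. The sign of the TotC difference between photoperiods turned when long day replicate 1 (-0.15), long day replicate 3 (-0.08) or short day replicate 4 (-0.29) was left out.

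The spread of TotC between samples was among the widest on the arrays. Its pooled standard deviation within a photoperiod was 0.778, and only 14 of the 6468 genes of mean 6 or more had a larger one, the median being 0.121. Within short days alone the samples spanned 1.93. regucalcin (0.299) and smp-30 (0.212) also varied more than the median gene, with 3.77% and 12.3% of genes above them, while puc (0.115) was close to it.

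**Figure D2:**
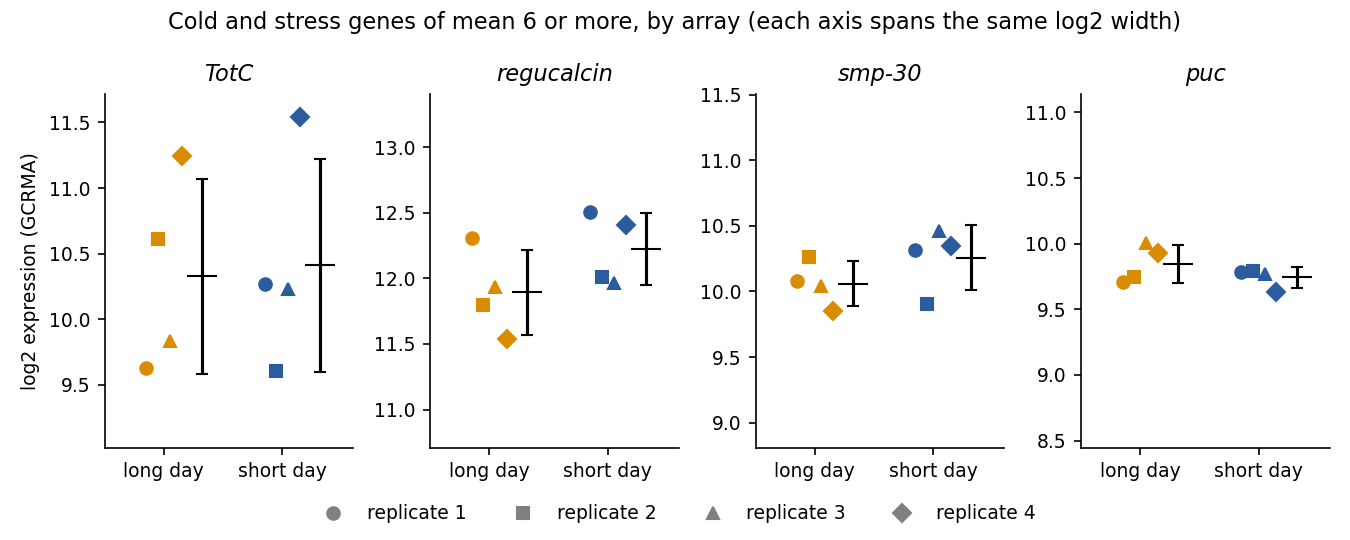
Log2 expression (vertical axis, same width in each panel) of TotC, regucalcin, smp-30 and puc in the 4 long day and 4 short day samples, with the symbol giving the replicate number and the bars the mean ± SD. TotC ranges from 9.61 to 11.54 with the replicate 4 sample highest in both photoperiods, and puc stays within 0.38.

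TotB, which lies next to TotC in the genome with no gene between them, was near the lowest value on 6 arrays and above it on the other 2. It was at 2.18 in long day replicates 1 and 2, at 2.17 in replicate 3 and at 3.62 in replicate 4. In short days it was at 2.18 in replicates 1 to 3 and at 2.69 in replicate 4. The 2 arrays with a TotB signal were the same 2 on which TotC was highest. TotZ, the other direct neighbour of TotB, stayed at the lowest value on these arrays as well. The photoperiods differed by -0.23 in TotB (95% interval -1.13 to 0.66, limma adjusted p = 0.990), and by 0.13 when long day replicate 4 was left out.

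**Figure D3:**
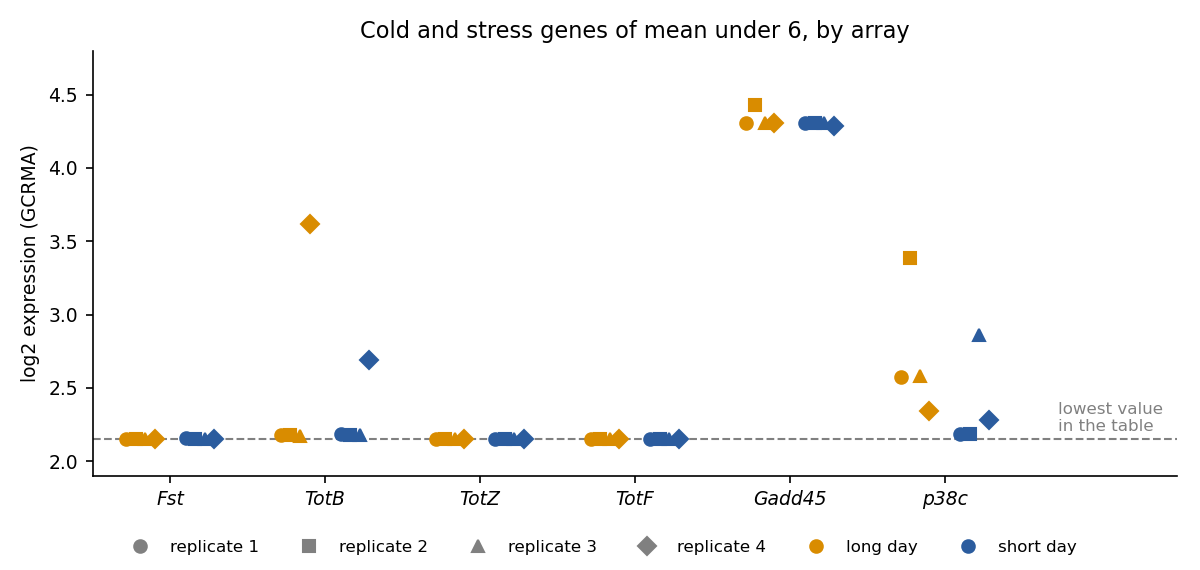
Log2 expression (vertical axis) of the 6 genes of mean under 6 in each of the 8 samples, with the symbol giving the replicate number and the dashed line the lowest value in the table, 2.15. Fst, TotZ and TotF lie on the line in all samples, TotB leaves it in the replicate 4 sample of each photoperiod, and p38c is highest in long day replicate 2 and short day replicate 3.

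regucalcin was bright and on average higher in short days, without passing the test. It was at 12.31, 11.80, 11.94 and 11.53 in long day replicates 1 to 4 and at 12.51, 12.01, 11.96 and 12.41 in short day replicates 1 to 4. Each short day value lay above the long day median, but long day replicate 1 was above 2 of the short day samples. The means were 11.89 ± 0.32 and 12.22 ± 0.27 (SD, n = 4 each), a 1.26-fold difference (log2 0.33, 95% interval -0.17 to 0.83, limma adjusted p = 0.799). Its second probe set gave 8.15 ± 0.56 and 8.58 ± 0.45, a difference of 0.43 (adjusted p = 0.830), and followed the first across the 8 arrays with r = 0.925. The last of its 3 probe sets was within 0.01 of the lowest value on all arrays. Under the 19 alternatives the difference ranged from 0.21, without long day replicate 4, to 0.47, without long day replicate 1, and was called in none.

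Samples with more regucalcin were those with a higher mean level of markers of haemocytes, the blood cells of the fly. The 3 genes whose pattern over the 8 arrays was most like that of regucalcin, out of 6467 others of mean 6 or more, were Sr-CI, a scavenger receptor of haemocytes (r = 0.974), vkg, a subunit of collagen IV (r = 0.971), and Ppn (papilin), a protein of the extracellular matrix (r = 0.971). Such values are the highest of a large number and are given as a description. The mean level of the 8 haemocyte markers of mean 4 or more ranked the 8 arrays in exactly the order that regucalcin did.

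Between regucalcin and that mean level the Pearson r was 0.977 (exact permutation p = 2.48e-05, the smallest the permutations can give, adjusted p = 0.000843) and Spearman's rho 1 (exact permutation p = 4.96e-05, adjusted p = 0.00169). This was 1 of 34 relations computed between the 4 genes of mean 6 or more and between each of them and 7 marker lists, and no other passed 0.05 after adjustment (lowest adjusted p = 0.717 for r and 0.636 for rho). Without the 2 arrays farthest from the median of regucalcin r was 0.956. Over the deviations of the samples from the means of their photoperiods it was 0.968. By the same measure TotC gave -0.90 with sarcomere markers, and smp-30 gave 0.84 with fat body, -0.83 with photoreceptor and -0.81 with neuronal markers, where r over the samples themselves was -0.32, -0.15, -0.71 and -0.24. These deviations were not tested. With vkg left out of the markers r was 0.966, although Col4a1, also a collagen IV subunit, stayed in. With the second regucalcin probe set in place of the first and all 8 markers r was 0.857 (exact permutation p = 0.00610). The relation was looked for after the genes most like regucalcin, vkg among them, had been seen. The p-values of this relation, adjusted or not, do not allow for that search.

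The haemocyte markers overlapped between the photoperiods. Their mean level ran from -0.26 to 0.16 in long days and from -0.06 to 0.25 in short days, relative to the average of all arrays. Hml (hemolectin), a clotting protein of haemocytes, was 9.59, 8.76, 9.02 and 8.78 in long days and 9.80, 9.39, 9.35 and 9.55 in short days, and followed regucalcin with r = 0.928. Col4a1, the other collagen IV subunit, did so with r = 0.933 and the phagocytic receptor eater with r = 0.884. srp, a transcription factor of blood and fat body, and crq, a receptor for dying cells, did not (r = 0.179 and -0.07). NimC1 followed regucalcin with r = 0.828, and Pxn (peroxidasin) and He did so less closely (r = 0.566 and 0.543). None of 9 haemocyte markers was called, and Pxn had the smallest p, with a difference of 0.37 (limma adjusted p = 0.531).

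**Figure D4:**
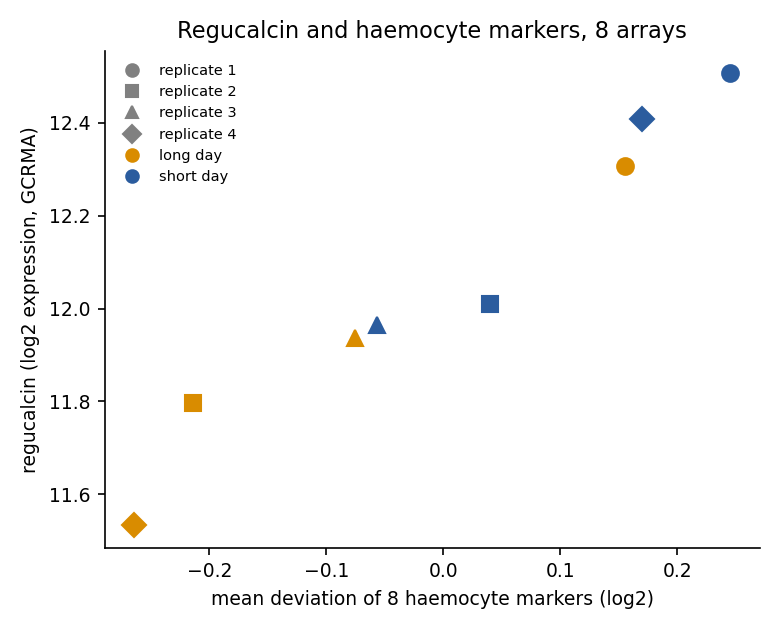
Regucalcin (log2 expression, vertical axis) against the mean deviation of 8 haemocyte markers from their average over all arrays (log2, horizontal axis), 1 point per sample, with colour for photoperiod and symbol for replicate number. The 8 samples fall in the same order on both axes, from long day replicate 4 at 11.53 to short day replicate 1 at 12.51, and the photoperiods overlap.

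smp-30 showed a smaller difference of the same sign. It was at 10.08, 10.27, 10.04 and 9.85 in long day replicates 1 to 4 and at 10.32, 9.90, 10.46 and 10.35 in short day replicates 1 to 4. In short days 3 samples lay above all long day samples and 1, replicate 2, lay near the lowest of them. The means were 10.06 ± 0.17 and 10.26 ± 0.25 (SD, n = 4 each), a 1.15-fold difference (log2 0.20, 95% interval -0.15 to 0.55, limma adjusted p = 0.830). The interval runs from 0.900-fold to 1.46-fold. The difference of smp-30 was 0.32 without short day replicate 2 (unadjusted p = 0.0259 in limma) and 0.13 without long day replicate 4 or short day replicate 3. A second, dim probe set was at 2.30 to 2.31 in long days and at 2.46, 2.45, 2.49 and 2.31 in short days, close to the lowest value of the table. Its difference of 0.12 had an unadjusted p = 0.0195 in limma (adjusted p = 0.431), and it passed 0.01 without short day replicate 4, where it was 0.16 (adjusted p = 0.0820).

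smp-30 and regucalcin, although related, were not closely coupled across samples (r = 0.493, exact permutation p = 0.212, adjusted p = 0.717, and rho = 0.50, exact permutation p = 0.216, adjusted p = 0.636). Nor did smp-30 follow the haemocyte markers (r = 0.348, exact permutation p = 0.385, adjusted p = 0.835, and rho = 0.50, exact permutation p = 0.216, adjusted p = 0.636). The genes most like smp-30 were CG1774 (r = 0.946), Akap200, an anchoring protein of protein kinase A (r = 0.899), and LanB2, a laminin subunit (r = 0.887). For TotC they were CG15553 (r = 0.906), comm, a regulator of axon crossing (r = 0.881), and l(2)k05819 (r = 0.877).

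The remaining signalling genes gave flat or dim readings. puc was at 9.71, 9.74, 10.01 and 9.93 in long day replicates 1 to 4 and at 9.78, 9.80, 9.77 and 9.63 in short day replicates 1 to 4, so that the 3 tightly grouped short day values lay inside the long day range. The difference was -0.10, a ratio of 0.931 (95% interval 0.816 to 1.06, limma adjusted p = 0.830). For puc it was -0.05 without long day replicate 3, and it reached -0.15 without long day replicate 1. The genes most like puc were mahj (r = 0.903), Seipin, a lipid droplet protein (r = 0.896), and CG12942 (r = 0.891).

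Gadd45 was at 4.31 on 6 of the 8 arrays, at 4.43 in long day replicate 2 and at 4.28 in short day replicate 4. Its mean of 4.32 placed it just above the limit of 4. Those 6 arrays held the same value, 4.30875, so the reading may be a lower end of this probe set rather than a transcript level. The difference was -0.04 (95% interval -0.11 to 0.04, adjusted p = 0.830), or -0.01 without long day replicate 2. Its narrow interval does not show that the transcript was steady. p38c was near the lowest value, at 2.58, 3.39, 2.58 and 2.34 in long days and at 2.19, 2.19, 2.86 and 2.28 in short days. In each photoperiod its highest value was on the array with low 18S rRNA. The difference was -0.34 (adjusted p = 0.830), and without these 2 arrays it was -0.28 (unadjusted p = 0.0226 and adjusted p = 0.520 in limma). Without long day replicate 2 alone p38c differed by -0.12, and over the alternatives by between -0.50 and -0.10.

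The pathways in which these genes act were described by lists of their other members. For comparison, limma called 3.48% of all genes and gave 11.1% an unadjusted p under 0.05. Both shares include dim genes, which were rarely called: 415 of the 417 called genes had a mean of 4 or more. At that level 5.65% of genes were called, and the share under 0.05 was not computed. In the JNK pathway, whose activity induces puc, none of 16 measured genes was called, 4 had an unadjusted p under 0.05 and the median difference was 0.10. The kinase bsk, the Jun kinase itself, was at 12.22, 12.13, 12.34 and 12.29 in long days and at 12.46, 12.54, 12.34 and 12.45 in short days, a 1.15-fold difference (adjusted p = 0.391). Mkk4 and msn, kinases upstream of it, differed by 1.11-fold each (adjusted p = 0.437 and 0.502).

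In the p38 pathway none of 5 genes was called, 1 had an unadjusted p under 0.05 and the median was 0.13. The transcription factor Atf-2, a p38 substrate, was at 9.01, 8.75, 8.92 and 9.61 in long days and at 9.59, 9.77, 9.38 and 9.71 in short days, with long day replicate 4 inside the short day range (difference 0.54, adjusted p = 0.505). The upstream kinases Mekk1 and Ask1 gave 0.24 and 0.13 (adjusted p = 0.568 and 0.830), and p38a, of the same family as p38c, 0.02 (adjusted p = 1). In the JAK-STAT pathway, a route to Turandot induction, none of 10 genes was called, 1 had an unadjusted p under 0.05 and the median was 0.02. Socs16D and Socs44A, of a family of feedback inhibitors, gave 0.31 and -0.14 (adjusted p = 0.459 and 0.701), and the transcription factor Stat92E 0.06 (adjusted p = 0.735). wdp (windpipe), which dampens this pathway but is not counted among the 10, gave -0.27 (unadjusted p = 0.0140 and adjusted p = 0.397 in limma). It passed 0.01 under 5 of the 19 alternatives.

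Of 14 DNA damage and p53 genes none was called and none had an unadjusted p under 0.05, with a median of 0.02. The smallest p-values were those of Irbp18, a transcription factor (0.22, adjusted p = 0.599), mei-41, the ATR kinase (-0.01, near the lowest values, adjusted p = 0.661), and rad50, of the break repair complex (0.08, adjusted p = 0.676). Of 12 genes of stress transcription and the integrated stress response none was called, 1 had an unadjusted p under 0.05 and the median was 0.02. The kinase PEK, a sensor of endoplasmic reticulum stress, gave 0.16, the transcription factor Atf3 0.07 and the kinase Gcn2, a sensor of amino acid shortage, -0.15 (adjusted p = 0.463, 0.725 and 0.742).

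In the heat shock list 7 of 13 genes had a probe set of their own. None of these 7 was called, 2 had an unadjusted p under 0.05 and the median was 0.11. The list held no gene named Hsp70, and the paper names Hsp70 among the top hits of its photoperiod comparison. Those genes were not examined here. Hsp26, a small heat shock protein, was at 7.70, 7.65, 7.70 and 7.78 in long days and at 7.91, 8.14, 8.66 and 8.14 in short days. All short day samples lay above all long day samples, and replicate 3, the array with flight muscle transcripts, was the highest (1.42-fold, log2 0.50, limma adjusted p = 0.414). The difference of Hsp26 was 0.35 without that array, where it passed 0.01, as it did under 3 other alternatives. Hsp68, an inducible chaperone, was 1.23-fold higher on average with 1 short day sample inside the long day range (adjusted p = 0.518), and the heat shock factor Hsf 1.08-fold (adjusted p = 0.573).

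Among the pathway lists only that of calcium handling held called genes. Of 11 genes 2 rose and none fell, where 1.79% of all genes rose and 1.69% fell. All 11 had a mean of 4 or more, a level at which 5.65% of genes were called. Of the 11, 4 had an unadjusted p under 0.05 in limma, against 11.1% of all genes, dim ones included, and the median difference was 0.09. PMCA, the calcium pump of the plasma membrane, was at 12.89, 12.77, 12.80 and 12.79 in long days and at 13.16, 13.27, 13.11 and 13.08 in short days, a 1.27-fold rise (unadjusted p under 0.01, adjusted p = 0.133 in limma). SERCA, the pump that returns calcium to the endoplasmic and sarcoplasmic reticulum, was at 13.83, 13.64, 13.75 and 13.79 and at 14.10, 14.10, 13.92 and 13.97, a 1.21-fold rise (adjusted p = 0.281). RyR, the calcium release channel of that store, differed by 1.27-fold and was not called (adjusted p = 0.382). PMCA was called under all 19 alternatives, and the call of SERCA was lost in 5, among them those without long day replicate 3, short day replicate 1 and short day replicate 2. Sarcomere markers were higher in short days in the same samples. Their mean level lay between -0.39 and -0.11 in long days and between 0.07 and 0.39 in short days. All 8 neuronal markers had a higher mean in short days, with a median difference of 0.19. The mean level of the neuronal markers lay between -0.33 and 0.02 in long days and between -0.07 and 0.23 in short days. Of these 8 only Snap25 rose, a call lost under 9 of the 19 alternatives. The part of either set of markers in the rise of the pumps was not tested. 

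**Figure D5:**
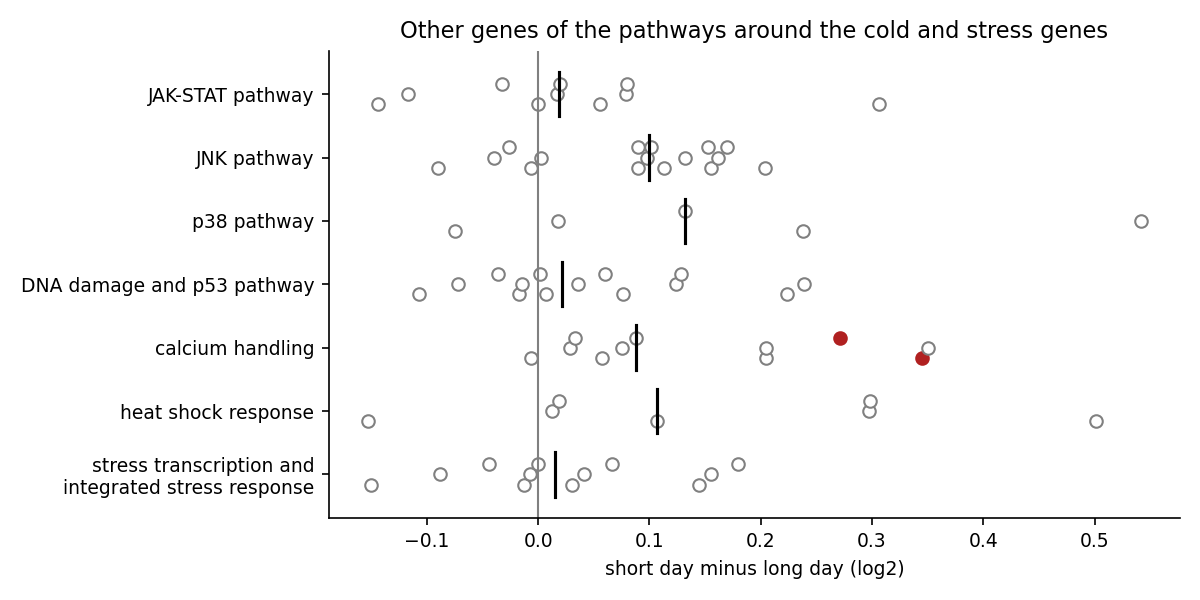
Short day minus long day difference (log2, horizontal axis) of each measured gene in 7 pathway lists, with the list median as a vertical bar and called genes (limma unadjusted p under 0.01) filled. The 2 filled points are PMCA and SERCA in the calcium handling list, and the list medians lie between 0.02 and 0.13.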

How the data were processed

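Total RNA of female heads was extracted with Trizol, labelled as biotin-cRNA and hybridised by the authors to 8 arrays. The deposited values are log2 expression per probe set made by the authors with GCRMA, which corrects background by probe sequence and applies quantile normalization (version not given in the sources used here, and the method named in the submitters' processing notes). A change in total mRNA is therefore not visible. The number of arrays limits the precision. Of 18952 probe sets, 183 controls were set aside. Genes were named from the platform annotation through Entrez numbers in a RefSeq table (Release 6), 13544 of 13647 probe sets with 1 gene matching. A further 402 listed several genes and 4720 none. The values name no genome build, so no coordinates are given, and no sequences were available to the work.

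Short minus long day was fitted with limma 3.58.1 in R 4.3.3 (lmFit, eBayes, two-sided, no block) on all 18769 probe sets, with Benjamini-Hochberg adjustment over all of them. The threshold of an unadjusted p under 0.01 was that of the study. Correlations over arrays were tested by exact permutation, two-sided. The limma fit was tested on simulated data.

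The genes named are the 10 themselves, in each pathway list the called genes or up to 3 of smallest p, in marker lists the called genes or the one of smallest p, and the 3 genes most like each gene of mean 6 or more. Other markers, p38a and the haemocyte genes were named after their values were seen. The genes and lists were chosen with earlier results of these data known. wdp had been listed under p38 by mistake and is described with JAK-STAT.

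Alternatives were a replicate block, filters at means of 4 and 6, a second quantile normalization, median centring, a trend and robust variance model, array weights, each array left out, the mean of all probe sets of a gene, no moderation and a floor of 3. A fit without the 2 arrays low in 18S rRNA was added after the data were seen.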

Additional observations from a re-analysis of the deposited data

Results flagged for a closer look

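In 8 of the 46 groups of 4 arrays examined (those spanning under 0.01 were not), 1 array stood farther from the other 3 than Dixon's 95% limit allows. Normally distributed values do so by chance in about 5% of groups. In the groups of TotB, Gadd45 and the dim smp-30 probe set the other 3 values were nearly equal. There a small deviation passes the limit, so the 5% does not apply to them. TotB was high in long day replicate 4 (3.62, the others 2.17 to 2.18) and in short day replicate 4 (2.69, the others 2.18). p38c was high in short day replicate 3 (2.86, the others 2.19 to 2.28). puc was low in short day replicate 4 (9.63, the others 9.77 to 9.80). Gadd45 was high in long day replicate 2 (4.43) and low in short day replicate 4 (4.28), with the others at 4.31. The dim probe set of smp-30 was low in long day replicate 4 (2.295 against 2.309). The mean level of the JAK-STAT genes was high in long day replicate 2 (0.0855, the others -0.06 to -0.04).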

How the results depend on the processing

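None of the 10 genes was called under any of the 19 alternatives. The count of genes called over the array, 417, was 238 with a replicate block, 144 with a trend and robust variance model, 588 after median centring, 566 with array weights, 523 and 504 with the filters at means of 4 and 6, and between 274 and 470 when 1 array was left out, the lowest without either the third long day or the first short day sample. With 1 array left out the difference of TotC ran from -0.29 to 0.39 and that of TotB from -0.36 to 0.13. TotC turned to -0.15 and -0.08 without long day replicates 1 and 3 and to -0.29 without the short day sample numbered 4, and TotB to 0.13 without the long day sample numbered 4. Direction was compared after rounding to 2 decimals, so the smallest differences could not count as turned. Fst and TotF, barely positive in the main fit, were at -0.0191 and -0.0205 after median centring and were not counted. By that rule 224 of 229 values of the 13 probe sets under alternatives kept their direction and their side of the threshold. The 4 of TotC and TotB turned, and the dim smp-30 probe set was called without short day replicate 4. Of 829 values of 44 other named genes, 752 kept both, 47 lost a call, 30 gained one and none turned. The causes were not tested. The replicate numbers are not said to pair the samples, so the main fit had no block. Same-numbered arrays did not deviate together (r = -0.05, -0.26, -0.14 and 0.18 for replicates 1 to 4 over 7870 probe sets). The block changed no call of the 10 genes, while 8 other named genes lost theirs, namely SERCA, AkhR, fit, Yp1, Yp3, Lsd-1, sals and Snap25. Of the fat body markers 2 fell under the block in place of 7, and of the sarcomere markers 6 rose. The filters at means of 4 and 6 removed the dim genes, which have no value there.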
